A study of Homo sapiens with 7 samples.

Results

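The genes examined here encode the aminoacyl-tRNA synthetases, the enzymes that join each amino acid to its tRNA. They were taken by gene symbol from lists of 20 cytosolic and 16 mitochondrial enzymes. All 36 genes had sense polyadenylation sites (PASs) in each of the 3 deposited tables, out of 16044 genes with a sense PAS in any of them. Human cells keep a cytosolic and a mitochondrial set of synthetases, both encoded in the nucleus, and the products of GARS and KARS serve both compartments. EPRS joins the glutamyl and prolyl enzymes in a single chain, FARSA and FARSB encode the subunits of cytosolic phenylalanyl-tRNA synthetase, and several cytosolic enzymes form a complex on AIMP scaffold proteins. Nuclear poly(A) polymerases (PAPs) add the tail once the RNA has been cleaved at a PAS, and a gene with several PASs can make mRNAs with different 3′ ends, called alternative polyadenylation (APA).

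The libraries came from HEK293 cells, an established human embryonic kidney line, transfected with siRNA. The control siRNA is called siCtrl, and the others targeted Star-PAP (siStar-PAP), PAPα (siPAPα), PAPγ (siPAPγ) or PAPα and PAPγ at once (the double knockdown, or double KD). The question was how loss of each nuclear PAP alters transcript levels and the choice of PAS. RNA 3′ ends were sequenced by 3′READS in replicate 1 of each of the 5 conditions and by the revised protocol 3′READS+ in replicate 2 of siCtrl and siStar-PAP (batch 2), 7 libraries in all. The other 3 conditions had 1 library each, and nothing in the labels says that replicates came from separate cultures, so p-values measure only the spread between these libraries.

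Depth lay between 4249376 and 25085659 PAS-supporting (PASS) reads, which are reads with untemplated Ts from the poly(A) tail. TUT1, which encodes Star-PAP, had 83 reads in siCtrl and 2 with siStar-PAP of replicate 1, but 6 and 4 in replicate 2, too few to check that label. PAPOLA, the gene of PAPα, had 71 reads in siCtrl, 12 with siPAPα and 8 with the double KD. These are 6.21, 0.478 and 0.426 RPM (reads per 1000000 PASS reads). PAPOLA was lower too with siStar-PAP of replicate 1, at 2.66 RPM (44 reads). It gave 8.91 and 8.0 RPM in siCtrl and siStar-PAP of replicate 2. PAPOLG, the gene of PAPγ, had 5 reads (0.438 RPM) in siCtrl, 15 (1.01 RPM) in the library labelled siPAPγ and 6 (0.319 RPM) with the double KD. It had 28 (1.69 RPM) with siStar-PAP of replicate 1 and 36 (1.44 RPM) with siPAPα. Its count was thus not lower with siPAPγ than in siCtrl, but these reads are too few to check that label. The paper checked knockdown of the proteins by immunoblot. All 5 HEK293 markers had reads, though not in every library. Summed over the list they gave 25.4 to 98.6 RPM, against at most 3.85 RPM for markers of blood, liver, fibroblasts or keratinocytes. PAX2 had 0 reads in siStar-PAP replicate 1, and NEFM had 3 and 1 in siCtrl and siStar-PAP of replicate 2.

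The 3′ ends on which the results below turn are shown first, each as the last 30 bases of the hg19 reference up to the listed PAS, 5′ to 3′ on the strand of the RNA. Capitals mark a polyadenylation hexamer, AATAAA or ATTAAA, where these bases hold one. The sites of EARS2 and NARS are those of the members with the largest rises seen in several KDs, and the rest are sites whose use differed between libraries.
AARS2, major PAS in the 3′ UTR, chr6:44266705-44266734, minus strand: aatatgcttATTAAAacaagttgtacagca
AARS2, distal PAS at the annotated gene end, chr6:44266468-44266497, minus strand: aaattctgtctagtaaaaattattcgagca
AARS2, upstream PAS in the 3′ UTR, chr6:44267426-44267455, minus strand: tctttcattaacaatgacctctaatttaaa
SARS, intronic PAS, chr1:109759974-109760003, plus strand: tttatAATAAAgtgtgaatatctcatgtaa
SARS, major PAS in the 3′ UTR, chr1:109780713-109780742, plus strand: aaccatgtAATAAAgcatctctggggaggg
LARS2, major PAS in the 3′ UTR, chr3:45590300-45590329, plus strand: ttagtgtAATAAAatgtttatcatctatga
LARS2, downstream PAS in the 3′ UTR, chr3:45590381-45590410, plus strand: taattacaaacagattgaggtattccatca
FARS2, intronic PAS, chr6:5262022-5262051, plus strand: ttttgtaacctAATAAAtgcataaaatgca
RARS2, 3′ UTR PAS, chr6:88224101-88224130, minus strand: tttccATTAAAatggcttttaaaatgtcaa
RARS2, PAS listed as intronic, inside a noncoding exon of GENCODE release 44, chr6:88229247-88229276, minus strand: agtcataacttacgtgccacttttatgtta
EARS2, major PAS in the 3′ UTR, chr16:23533337-23533366, minus strand: tcatctcagtaaattttttttataacacta
NARS, major PAS at the annotated gene end, chr18:55267888-55267917, minus strand: cagtcAATAAAtgaacacccgtaaaaactc

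The hexamer search covered 40 nt before the main PAS of each gene, on the strand of the RNA, with AATAAA taken first. It found AATAAA in 27 of the 34 members examined (79.4%), ATTAAA in 5 and neither in 2, EARS2 and WARS2. Over 10857 genes, AATAAA stood before 64.7% of main PASs, ATTAAA before 16.7% and neither before 18.5%. Among the cytosolic genes 18 of 20 had AATAAA and among the mitochondrial genes 9 of 14. The trimer ATA, searched because Star-PAP is known to bind RNA with AUA, lay between 100 and 41 nt upstream of 52.9% of the members' main PASs and of 54.1% of those of all genes. These are matches of letters and say nothing of binding.

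The cytosolic genes tended to give more 3′ ends than the mitochondrial ones in all 7 libraries, with wide overlap between the classes. In siCtrl replicate 1 the median was 47.2 RPM over the 20 cytosolic genes and 15.8 RPM over the 16 mitochondrial genes, a ratio of 2.98. The same ratio was 2.88 in siCtrl replicate 2 and ran from 2.16 to 2.80 in the 5 KD libraries. Over members with at least 20 reads it was 1.29 with siStar-PAP replicate 1. Ranges overlapped in every library, from 1.66 to 774 RPM for cytosolic and from 1.05 to 794 RPM for mitochondrial genes in siCtrl replicate 1. Of all genes with reads in that library the median was 6.21 RPM, and 19 cytosolic and 11 mitochondrial synthetase genes lay above it. Since 3′READS gives a read per RNA end, these levels need no correction for length.

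**Figure D1:**
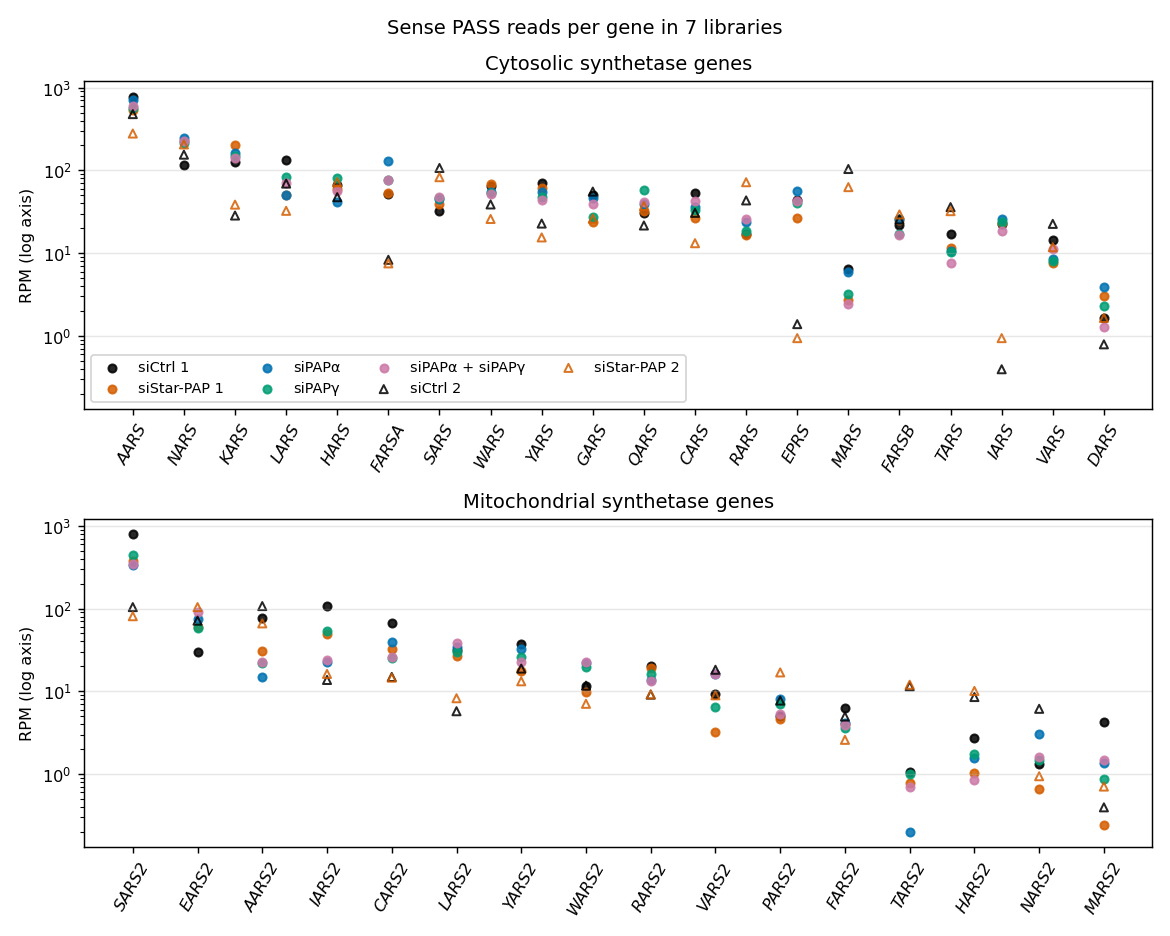
Levels of the 36 synthetase genes in RPM on a log axis, with genes ordered by their mean over the 7 libraries in each class, filled circles for replicate 1 and open triangles for replicate 2. AARS and SARS2 lead their classes, and genes such as EPRS, IARS and MARS show the triangles far from the circles.

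AARS, the cytosolic alanyl-tRNA synthetase, was the most abundant member by mean RPM. It gave 774 RPM in siCtrl and 542 with siStar-PAP of replicate 1, 703 with siPAPα, 575 with siPAPγ, 598 with the double KD, and 479 and 279 in siCtrl and siStar-PAP of replicate 2. NARS (asparaginyl) and KARS (lysyl) followed among the cytosolic genes with means of 199 and 121 RPM. At the other end of this class stood IARS (isoleucyl), VARS (valyl) and DARS (aspartyl), with means of 16.5, 12.0 and 2.10 RPM. These means pool both protocols, and the order depends on that. IARS gave 18.7 to 26.1 RPM in the 3′READS libraries, and 0.396 and 0.941 RPM in siCtrl and siStar-PAP of replicate 2. MARS (methionyl) gave only 2.45 to 6.39 RPM in the 3′READS libraries, but 104 and 62.8 RPM in replicate 2.

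SARS2, the mitochondrial seryl-tRNA synthetase, led its class with 794 RPM in siCtrl replicate 1, 377 with siStar-PAP, 337 with siPAPα, 439 with siPAPγ and 345 with the double KD, and with 104 and 80.7 RPM in siCtrl and siStar-PAP of replicate 2. Its level in siCtrl replicate 1 exceeded the other 6 libraries. EARS2 (glutamyl) and AARS2 (alanyl) came next, with means of 69.8 and 48.5 RPM. HARS2 (histidyl), NARS2 (asparaginyl) and MARS2 (methionyl) were lowest, with means of 3.79, 2.17 and 1.32 RPM, so that single libraries held as few as 2 reads of MARS2. Here too the means pool both protocols. TARS2, with a mean of 3.89 RPM, gave 0.199 to 1.05 RPM in the 3′READS libraries, and 11.5 and 12.0 RPM in replicate 2.

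The protocols gave very different levels for some members. Of 33 synthetase genes with more than 50 reads over both siCtrl libraries, 13 (39.4%) differed by over 3-fold between them, beside 41.9% of 9634 genes. IARS had 259 reads in siCtrl replicate 1 and 2 reads in replicate 2, and EPRS had 505 and 7, so that their RPM were 57.2-fold and 31.9-fold lower in replicate 2. MARS (methionyl) and TARS2 (threonyl) went the other way, 16.3-fold and 10.9-fold higher in replicate 2. Batch and protocol cannot be told apart, and every KD was therefore compared with the siCtrl library in its own table. The labels give no batch for the double KD, whose table repeats siCtrl replicate 1, so a difference of batch within that comparison cannot be told apart from the KD.

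**Figure D2:**
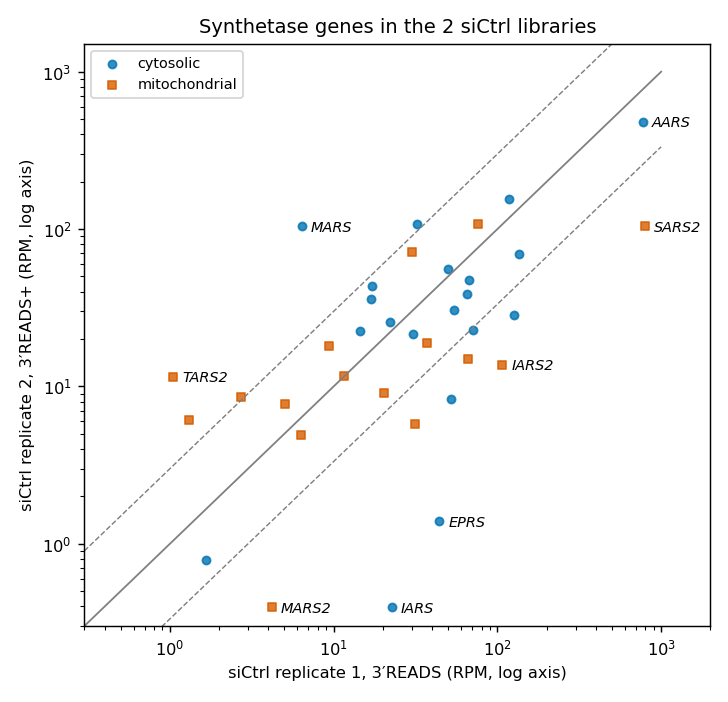
RPM of each synthetase gene in siCtrl replicate 1 (horizontal, 3′READS) and siCtrl replicate 2 (vertical, 3′READS+) on log axes, with the line of equality and dashed lines at 3-fold. IARS and EPRS lie far below the lower dashed line and MARS and TARS2 above the upper one.

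Both replicates of siStar-PAP and siCtrl were fitted together with batch as a block. No member passed an adjusted p of 0.05 in edgeR's quasi-likelihood test (0 of 35 tested), while 266 of 11614 genes (2.29%) did. At an unadjusted p below 0.05 there were 8 members, 4 lower and 4 higher, beside 15.1% of all genes. DESeq2 called 2 members, EARS2 with an adjusted p of 0.0467 and NARS with 0.0472, beside 276 of the 11614 genes fitted. It gave no adjusted p for VARS2, PARS2, NARS2, IARS, DARS, FARS2, TARS2, HARS2 and WARS2. Fewer genes than those fitted were therefore adjusted in DESeq2. The filter of edgeR left out MARS2.

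EARS2, which charges mitochondrial tRNAs with glutamate, had the smallest p among the members. Its level was 30.0 RPM in siCtrl and 60.1 with siStar-PAP of replicate 1, and 71.3 and 104 in replicate 2. The siStar-PAP library was thus higher in both replicates, although siCtrl replicate 2 lay above siStar-PAP replicate 1. The fitted log2 change was 1.13 ± 0.34 (SE), with an edgeR adjusted p of 0.0957 and a range of 0.0421 to 1.0 over its alternatives.

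NARS gave 117 RPM in siCtrl and 225 with siStar-PAP of replicate 1, and 155 and 206 in replicate 2, so both siStar-PAP libraries lay above both controls. Its log2 change was 1.03 ± 0.34 (SE), with an edgeR adjusted p of 0.136. KARS and QARS (glutaminyl) were the other 2 with higher values, at log2 changes of 0.91 and 0.78. On the lower side were LARS (leucyl) at -0.91, VARS2 (valyl) at -0.92, CARS (cysteinyl) at -0.75 and GARS (glycyl) at -0.72. LARS went from 135 to 50.2 RPM in replicate 1 and from 69.3 to 32.5 RPM in replicate 2, with an edgeR adjusted p of 0.169.

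Changes in single pairs of libraries are given relative to the median change of all genes, since that median was itself below 0. On the log2 RPM scale it was -0.45 and -0.16 with siStar-PAP replicates 1 and 2, -0.27 with siPAPα, -0.33 with siPAPγ and -0.39 with the double KD. Because RPM is a share of a library, less RNA of one gene and more of the others cannot be told apart. A member was counted as higher or lower when it had more than 50 reads over the pair and a relative change above 2-fold. The 4 comparisons outside batch 2 share the single siCtrl library of replicate 1, so a gene that was high or low in that library moves all of them, and with 1 library a side none of these differences has a replicate check.

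Those counts were close to, or below, the share of all genes in each comparison. In siStar-PAP replicate 1, 6 of 33 members (18.2%) were past 2-fold, against 23.8% of genes. In siStar-PAP replicate 2 it was 2 of 30 (6.67%), against 13.7%. siPAPα had 11 of 35 (31.4%), against 28.0%, the library labelled siPAPγ 7 of 34 (20.6%), against 21.9%, and the double KD 7 of 32 (21.9%), against 29.2%. By direction, 2 were lower and 4 higher with siStar-PAP replicate 1, beside 13.1% and 10.6% of genes, and 1 and 1 with replicate 2, beside 8.11% and 5.56%. siPAPα had 4 lower and 7 higher, beside 15.1% and 12.8%, siPAPγ 3 and 4, beside 11.9% and 9.98%, and the double KD 3 and 4, beside 15.8% and 13.4%. In all, 16 of the 36 genes passed 2-fold in at least 1 comparison. The matching count over all genes is not given here, so this number says nothing particular of the members.

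The class medians lay on opposite sides in every comparison. Cytosolic genes had a median relative log2 change of 0.33 with siStar-PAP replicate 1, 0.31 with siPAPα, 0.11 with siPAPγ and 0.05 with the double KD, where mitochondrial genes had -0.58, -0.31, -0.25 and -0.13. In siStar-PAP replicate 2 the order turned, with -0.22 for cytosolic and 0.17 for mitochondrial genes. The difference of the medians was therefore 0.91 with siStar-PAP replicate 1 and -0.39 in replicate 2, so its sign differed between the replicates. Over members with more than 200 reads it was 0.91 with replicate 1 and 0.09 with replicate 2, and the sign was then the same. In siPAPα the difference was 0.62, and 0.10 over members with more than 200 reads.

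**Figure D3:**
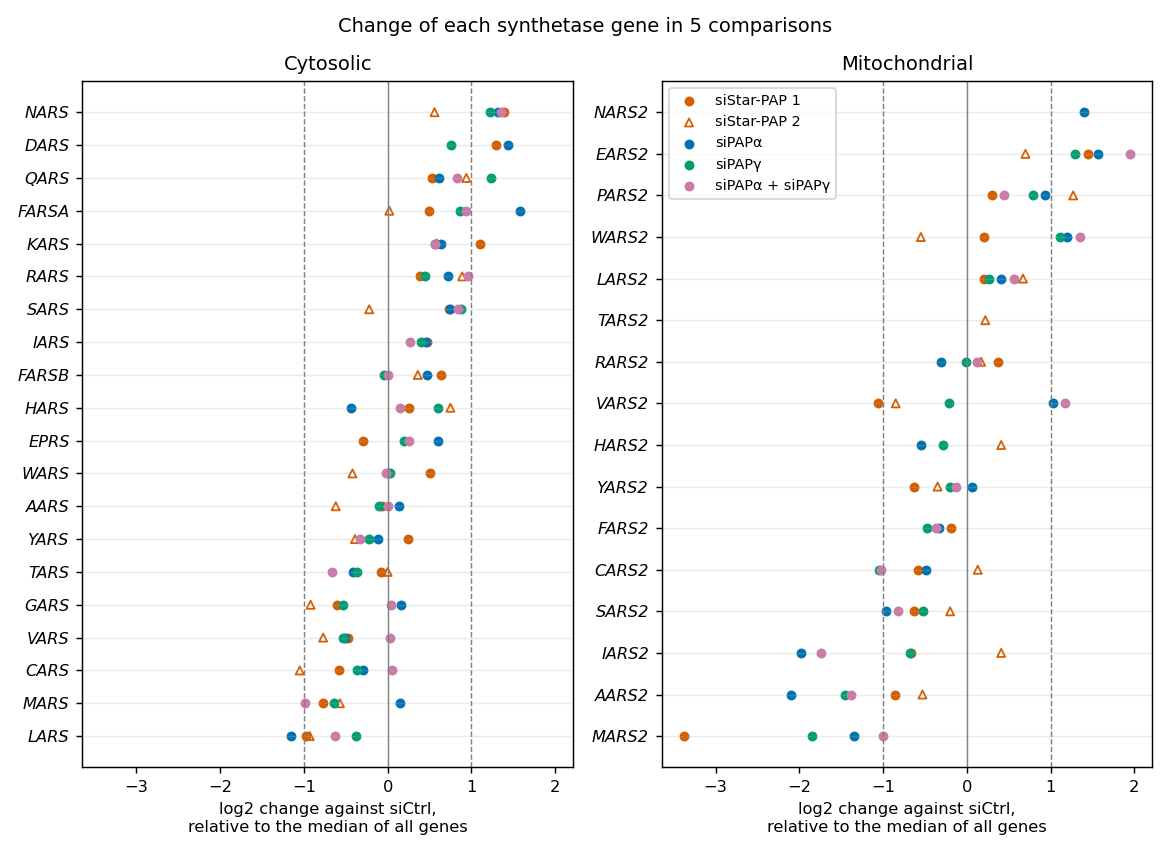
Relative log2 change of each synthetase gene with more than 50 reads over the pair, for the 5 comparisons of a KD library with its siCtrl, where 0 is the median of all genes and dashed lines mark 2-fold. NARS and EARS2 lie above 0 in all 5 comparisons, and AARS2 lies below 0 in all 5.

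Among cytosolic genes, NARS was past 2-fold in each comparison with siCtrl replicate 1. Its level was 117 RPM in that control against 225 with siStar-PAP, 243 with siPAPα, 217 with siPAPγ and 228 with the double KD, relative log2 changes of 1.39, 1.32, 1.22 and 1.35. The 4 KD libraries differed little from each other, and siStar-PAP replicate 2 gave a relative log2 change of 0.56.

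FARSA, the alpha subunit of phenylalanyl-tRNA synthetase, was higher in siPAPα alone among the comparisons, with 52.2 RPM in siCtrl replicate 1, 53.6 with siStar-PAP, 130 with siPAPα, 75.6 with siPAPγ and 75.9 with the double KD. It gave 8.32 and 7.53 RPM in siCtrl and siStar-PAP of replicate 2. The relative log2 change in siPAPα was 1.58, beside 0.93 with the double KD, which also targets PAPα, and 0.87 with siPAPγ, and whether it exceeds either was not tested. FARSB, the gene of the beta subunit, stayed within 2-fold in all 5 comparisons, with relative log2 changes from -0.04 to 0.64.

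KARS was past 2-fold in siStar-PAP replicate 1, with 127 RPM in siCtrl replicate 1, 200 with siStar-PAP, 164 with siPAPα, 149 with siPAPγ and 143 with the double KD, and 28.5 and 38.6 RPM in siCtrl and siStar-PAP of replicate 2. Each KD library of KARS lay above its control. QARS was past 2-fold in siPAPγ, with 30.5 RPM in siCtrl replicate 1, 32.3 with siStar-PAP, 39.0 with siPAPα, 57.7 with siPAPγ and 41.6 with the double KD, and 21.6 and 37.2 RPM in replicate 2. DARS was higher in siStar-PAP replicate 1 and siPAPα, at relative log2 changes of 1.29 and 1.44, from 19 reads in siCtrl, 51 with siStar-PAP and 98 with siPAPα. It had 34 reads in siPAPγ, 24 with the double KD, and 4 and 7 in siCtrl and siStar-PAP of replicate 2. Reads of DARS are thus few, and its counting interval in siPAPα ran from 0.78 to 2.29 on the log2 scale.

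LARS and CARS were the only cytosolic genes past 2-fold on the lower side in these comparisons. LARS gave 135 RPM in siCtrl replicate 1, 50.2 with siStar-PAP, 50.7 with siPAPα, 82.3 with siPAPγ and 69.9 with the double KD, and passed 2-fold in siPAPα at -1.15, beside -0.98 and -0.93 in the 2 siStar-PAP replicates. CARS gave 54.0 RPM in siCtrl replicate 1, 26.5 with siStar-PAP, 36.6 with siPAPα, 33.2 with siPAPγ, 43.2 with the double KD, and 30.7 and 13.2 in replicate 2, with -1.05 with siStar-PAP replicate 2. MARS came nearest to this side in siPAPγ and the double KD, at -0.64 and -0.99, from 73 reads in siCtrl.

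On the mitochondrial side EARS2 was higher in every KD library than in the control of its table, and past 2-fold in each comparison with siCtrl replicate 1. It gave 30.0 RPM in siCtrl replicate 1, 60.1 with siStar-PAP, 74.4 with siPAPα, 58.6 with siPAPγ and 90.2 with the double KD. The relative log2 changes were 1.45, 1.57, 1.29 and 1.95, and 0.70 with siStar-PAP replicate 2. Between 85.9% and 99.3% of its reads ended at the PAS printed above, which has neither AATAAA nor ATTAAA in the 40 nt before it.

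AARS2 was lower in all 5 comparisons and past 2-fold in the 3 with siRNAs against PAPα or PAPγ. Its level was 76.5 RPM in siCtrl replicate 1, 30.9 with siStar-PAP, 14.8 with siPAPα, 22.0 with siPAPγ and 22.5 with the double KD, and 107 and 66.1 RPM in siCtrl and siStar-PAP of replicate 2. The relative log2 changes were -2.10 with siPAPα, -1.46 with siPAPγ and -1.39 with the double KD, beside -0.86 and -0.53 with siStar-PAP. Each KD library thus lay below the control of its table.

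IARS2, the mitochondrial isoleucyl-tRNA synthetase, was lower in siPAPα and in the double KD. It gave 107 RPM in siCtrl replicate 1, 49.1 with siStar-PAP, 22.6 with siPAPα, 53.1 with siPAPγ and 23.7 with the double KD, and 13.7 and 16.2 RPM in replicate 2. The relative log2 changes were -1.98 and -1.74 where PAPα was targeted, and -0.67 and -0.68 with siStar-PAP replicate 1 and siPAPγ. The 2 libraries with an siRNA against PAPα lay below the other 3 of the 3′READS protocol, a difference with no replicate.

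CARS2 (cysteinyl) gave 66.1 RPM in siCtrl replicate 1, 32.4 with siStar-PAP, 39.0 with siPAPα, 25.3 with siPAPγ and 26.0 with the double KD, and 14.9 and 14.6 RPM in replicate 2. It was past 2-fold in siPAPγ and the double KD, at -1.05 and -1.02. MARS2 had 48 reads in siCtrl replicate 1, 4 with siStar-PAP, 34 with siPAPα, 13 with siPAPγ and 28 with the double KD, and 2 and 3 in replicate 2. Its relative log2 change was -3.38 with siStar-PAP replicate 1, with a counting interval of -5.61 to -2.22, and -1.35 and -1.85 with siPAPα and siPAPγ.

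WARS2 (tryptophanyl) gave 11.5 RPM in siCtrl replicate 1, 9.67 with siStar-PAP, 22.0 with siPAPα, 19.8 with siPAPγ and 22.4 with the double KD, and 11.7 and 7.06 RPM in replicate 2. It was past 2-fold in all 3 libraries with siRNAs against PAPα or PAPγ, at 1.20, 1.11 and 1.35, and within 2-fold in both siStar-PAP replicates. VARS2 gave 9.36 RPM in siCtrl replicate 1, 3.26 with siStar-PAP, 16.0 with siPAPα, 6.42 with siPAPγ and 16.2 with the double KD, and 18.2 and 8.94 RPM in replicate 2. Its direction differed between comparisons, with -1.06 with siStar-PAP replicate 1 against 1.03 with siPAPα and 1.17 with the double KD, and the difference between them was not tested. Most reads listed for VARS2 ended 2170 nt past the annotated gene end, 79 of 107 in siCtrl replicate 1 and 53 of 54 with siStar-PAP. Whether those ends belong to VARS2 mRNA was not tested.

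The remaining mitochondrial genes past 2-fold were NARS2 with siPAPα and PARS2 with siStar-PAP replicate 2. NARS2 had 15 reads in siCtrl replicate 1, 11 with siStar-PAP, 76 with siPAPα, 22 with siPAPγ and 30 with the double KD, and 31 and 4 in replicate 2. PARS2 (prolyl) gave 5.08 RPM in siCtrl replicate 1, 4.59 with siStar-PAP, 8.13 with siPAPα, 7.03 with siPAPγ and 5.32 with the double KD, and 7.72 and 16.9 RPM in replicate 2, a relative log2 change of 1.27. HARS2, FARS2 (phenylalanyl), LARS2 (leucyl), RARS2 (arginyl), SARS2, TARS2 and YARS2 (tyrosyl) passed 2-fold in no comparison in which they had enough reads.

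Most members lay on the same side of the median in both siStar-PAP replicates. Of 28 members with more than 50 reads in both comparisons 22 (78.6%) did so, beside 65.3% of 6542 genes. None was past 2-fold the same way in both, beside 328 of the 6542 genes, a small share too.

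The 2 classes also differed in how many PASs the tables list. In the table of the 4 single conditions of replicate 1, 9 of 20 cytosolic genes (45.0%) and 2 of 16 mitochondrial genes (12.5%) had a single PAS, beside 29.5% of all genes. The median was 2 PASs for cytosolic and 3 for mitochondrial genes, and all members together had 92. PASs upstream of the 3′-most exon took 2.35% of the cytosolic and 1.40% of the mitochondrial reads in siCtrl replicate 1, beside 5.00% over all genes. Of those 463 cytosolic reads, 349 were at the only PAS of QARS, which the table lists in an upstream exon although GENCODE places it in the 3′ UTR at the end of the gene. Without QARS, a choice made after seeing the data, the cytosolic share was 0.590%, below the mitochondrial one. In siCtrl replicate 2 the shares were 6.78% of cytosolic reads (5.21% without QARS) and 3.31% of mitochondrial reads, beside 4.97% over all genes, so the cytosolic share then lay above that of all genes. The methods give a minimum of 5% of the reads of the gene for a PAS to be kept, but not every listed PAS meets it. In at least 1 library of its table, 90 of 92 member PASs exceeded that share in the table of the 4 single conditions, 68 of 113 in the table with the double KD and 81 of 102 in batch 2, where 98.2%, 82.1% and 87.7% of all sense PASs did. The numbers of PASs are therefore not comparable between tables.

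The share of a gene's reads at each PAS was compared over both siStar-PAP replicates with edgeR's diffSpliceDGE, on PASs matched between the tables within 24 nt. It called 0 of 40 member PASs, and 12 of 12132 PASs (0.0989%) in all. There were 3 member PASs at an unadjusted p below 0.05, the intronic PAS of SARS, the distal PAS of AARS2 and a PAS of FARSB, with edgeR adjusted p of 0.535, 0.705 and 0.898.

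Within single pairs of libraries, shares were compared by Fisher's exact test (two-sided), and a PAS was counted at an adjusted p below 0.05 and a difference of at least 10 percentage points. Such a test compares those libraries, not the conditions, and its intervals cover counting error only, as the reads carry no molecular identifiers. It counted 16 of 58 member PASs in siStar-PAP replicate 1, beside 25.0% of all PASs, and 3 of 57 in replicate 2, beside 7.52%. siPAPα had 21 of 58, beside 26.6%, siPAPγ 15 of 55, beside 20.3%, and the double KD 14 of 90, beside 21.3%. By gene, 9 of 20 members with several PASs had such a site with siStar-PAP replicate 1, beside 51.7% of genes, and 2 of 12 with replicate 2, beside 17.7%. With siPAPα it was 12 of 20, beside 54.6%, with siPAPγ 8 of 19, beside 45.1%, and with the double KD 7 of 20, beside 47.8%.

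AARS2 held the largest shift of the members in siPAPα and in the double KD. Its major PAS took 89.4% of 874 reads in siCtrl replicate 1 (95% exact interval 87.1 to 91.3), 63.3% with siStar-PAP, 34.4% with siPAPα, 60.1% with siPAPγ and 37.1% with the double KD. The distal PAS, 237 nt downstream, went from 9.84% in siCtrl to 36.7%, 47.6%, 33.7% and 50.4% in the same KDs. These siCtrl shares are of the 874 reads in the table of the 4 single conditions. The table that holds the double KD gives siCtrl 883 reads of AARS2, and the largest difference there was 51.3 points. All 4 KD libraries therefore shared less use of the major PAS with its ATTAAA and more of the distal one, and the total of the gene was lower in each. In siPAPα the upstream PAS also took 18.0%, against 0.801% in siCtrl.

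The second control did not resemble the first at this gene. In batch 2 the major PAS of AARS2 took 62.5% in siCtrl and 66.2% with siStar-PAP, and the distal PAS 1.86% and 3.91%, neither of which was counted. A further PAS took 30.5% and 22.4% there, which is listed in the table that holds the double KD at 4.96%. The control of replicate 1 thus had the highest share of the 7 libraries at the major PAS.

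SARS, the cytosolic seryl-tRNA synthetase, had a counted PAS in all 5 comparisons. Its major 3′ UTR PAS took 62.5% in siCtrl replicate 1, 89.4% with siStar-PAP, 77.8% with siPAPα and 83.3% with siPAPγ, and 57.9% against 74.9% in the table that holds the double KD. In batch 2 it took 47.2% in siCtrl and 61.4% with siStar-PAP, with an adjusted p of 0.0011 in Fisher's exact test. Every KD library thus had a larger share at the 3′ UTR end than the control of its table. The intronic PAS fell from 18.2% to 3.24%, 5.31% and 4.89% with siStar-PAP, siPAPα and siPAPγ, and from 16.9% to 2.01% with the double KD. In batch 2 that site had 3.14% and 1.14%, and another PAS in the same intron had 24.9% and 14.2%.

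**Figure D4:**
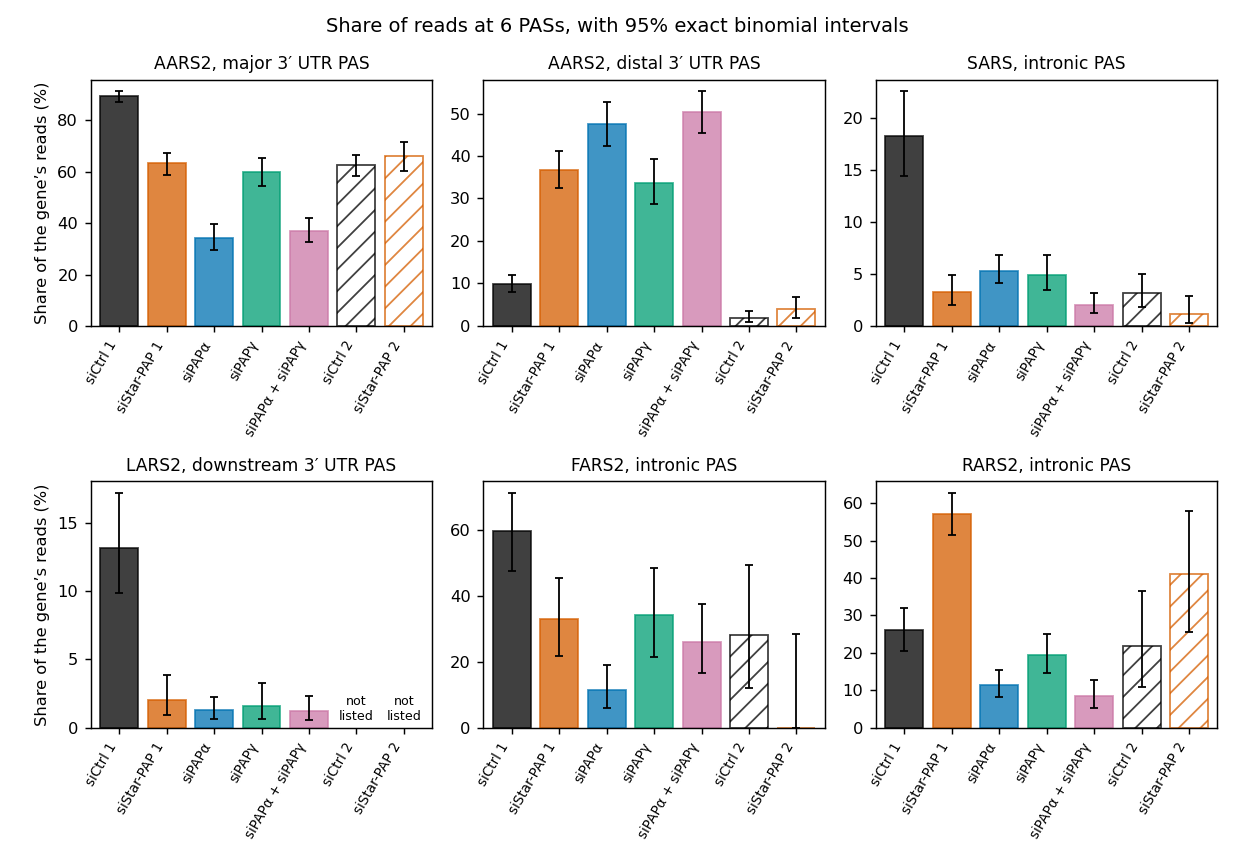
Share of a gene's sense reads at 6 PASs in the 7 libraries, with 95% exact binomial intervals for counting error, filled bars for replicate 1 and hatched bars for replicate 2. The bar of siCtrl replicate 1 uses the table of the 4 single conditions, not the table that holds the double KD. The bar of siCtrl replicate 1 stands apart from the 4 KD bars beside it at AARS2, SARS and LARS2. At FARS2 that bar is the highest, but its interval overlaps that of siPAPγ. At RARS2 siStar-PAP is the highest bar in both replicates.

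LARS2 had a downstream PAS, 81 nt past the major one, with 13.2% of reads in siCtrl replicate 1, 2.05% with siStar-PAP, 1.27% with siPAPα and 1.59% with siPAPγ, and 12.1% against 1.25% in the table that holds the double KD. Neither AATAAA nor ATTAAA stood before it. The major PAS took 66.6% in siCtrl, 68.0% with siStar-PAP, 81.4% with siPAPα and 87.5% with siPAPγ. The table of batch 2 does not list the downstream PAS, and LARS2 had 29 and 35 reads there, so this difference rests on siCtrl replicate 1.

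FARS2, the mitochondrial phenylalanyl-tRNA synthetase, ended more often in an intron near its 5′ end in siCtrl replicate 1 than in the KDs. The intronic PAS took 59.7% of 72 reads in siCtrl, 32.8% of 67 with siStar-PAP, 11.4% of 105 with siPAPα and 34.0% of 53 with siPAPγ, and 57.3% against 26.0% in the table that holds the double KD. In batch 2 it had 7 of 25 reads (28.0%) in siCtrl and 0 of 11 with siStar-PAP, too few to be compared. The 3′ UTR PAS took 34.7% in siCtrl and 83.8% with siPAPα, a difference of 49.1 points.

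RARS2, the mitochondrial arginyl-tRNA synthetase, had an intronic PAS that moved in opposite directions, with a larger share with siStar-PAP and a smaller one with siPAPα than in siCtrl. It took 26.0% of 231 reads in siCtrl replicate 1 (95% exact interval 20.4 to 32.1), 57.2% with siStar-PAP (51.6 to 62.7), 11.4% with siPAPα (8.24 to 15.3) and 19.5% with siPAPγ (14.6 to 25.1). In the table that holds the double KD it took 33.1% in siCtrl and 8.47% in the KD. The 3′ UTR PAS printed above had 46.3% in siCtrl, 27.4% with siStar-PAP, 73.4% with siPAPα and 60.2% with siPAPγ, and 59.1% against 91.5% for the double KD. In batch 2 the intronic PAS had 10 of 46 reads (21.7%) in siCtrl and 16 of 39 (41.0%) with siStar-PAP, below the 50 reads required and with overlapping intervals. The intervals of siStar-PAP and siPAPα in replicate 1 did not overlap, and that difference was not tested further. An intronic PAS of CARS2 also moved both ways, by under 10 points, from 4.24% in siCtrl replicate 1 to 8.40% with siStar-PAP and 0.715% with siPAPα, with adjusted p of 0.00841 and 5.25e-06 in Fisher's exact test.

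The shares of 3′ UTR PASs also differed in RARS (cytosolic arginyl) and in YARS2. In RARS the upstream PAS took 62.2% in siCtrl replicate 1, 81.8% with siStar-PAP, 74.1% with siPAPα, 64.3% with siPAPγ and 78.8% with the double KD, while in batch 2 it took 39.7% in siCtrl and 33.7% with siStar-PAP. The value moved the other way in replicate 2, by 6.07 points with an adjusted p of 0.407 in Fisher's exact test. In YARS2 the upstream PAS took 43.5% in siCtrl replicate 1, 61.2% with siStar-PAP, 52.5% with siPAPα and 58.0% with siPAPγ, 50.7% against 64.1% in the table that holds the double KD, and 22.1% and 21.4% in batch 2. The PAS 129 nt downstream had 39.3% in siCtrl replicate 1, 31.6% with siStar-PAP, 28.1% with siPAPα and 36.0% with siPAPγ, and the most distal PAS, a further 6498 nt on, had 17.2%, 7.22%, 19.5% and 6.04%. The larger share of the upstream PAS thus stood beside a counted loss at the most distal PAS with siPAPγ and at the middle one with siPAPα and the double KD, where the middle PAS fell from 45.8% to 34.2%. The most distal PAS is listed neither there nor in batch 2.

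WARS, the cytosolic tryptophanyl-tRNA synthetase, shifted to its upstream 3′ UTR PAS in siPAPα, where that site took 58.8% against 37.3% in siCtrl, and siStar-PAP replicate 1 had 38.3%, siPAPγ 43.3% and the double KD 44.2%. In batch 2 the same PAS took 28.6% in siCtrl and 14.5% with siStar-PAP, counted in the other direction. The distance between its 2 main PASs is 687 nt. TARS, PARS2, VARS2, WARS2 and MARS had counted PASs in 1 or 2 comparisons each.

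Other genes of tRNA charging and delivery were counted in the same way. Of 15 listed genes, 13 had enough reads in each comparison with siCtrl replicate 1 and 8 in batch 2. Past 2-fold were 1 lower and 0 higher in siStar-PAP replicate 1, none in replicate 2, 1 lower and 4 higher in siPAPα, 1 higher in siPAPγ and 3 higher in the double KD, with medians of -0.02, 0.07, 0.22, 0.01 and 0.07. Among all genes the shares lower and higher were 13.1% and 10.6% with siStar-PAP replicate 1, 8.11% and 5.56% with replicate 2, 15.1% and 12.8% with siPAPα, 11.9% and 9.98% with siPAPγ, and 15.8% and 13.4% with the double KD. GATC and QRSL1 encode subunits of the mitochondrial amidotransferase that turns glutamate on tRNA(Gln), placed there by the product of EARS2, into glutamine. GATC had relative log2 changes of 0.71 and 0.82 with siStar-PAP, 1.47 with siPAPα, 1.05 with siPAPγ and 1.33 with the double KD, and QRSL1 had 0.96, 0.18, 1.15, 0.80 and 1.22. The third subunit gene, PET112, gave 0.42, -0.44, -0.19 and -0.05 in the comparisons with siCtrl replicate 1. The scaffold genes AIMP1, AIMP2 and EEF1E1 lay between -0.47 and 0.35 in all comparisons.

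The amino acid response shares its transcription factor ATF4 with several cytosolic synthetase genes, and 12 of its genes were examined beside them. With 10 tested in replicate 1, 2 were higher in siStar-PAP, 1 lower and 3 higher in siPAPα, 1 lower and 2 higher in siPAPγ, and 1 lower and 2 higher in the double KD, beside the shares of all genes just given. The lower genes were CHAC1 (a glutathione-degrading enzyme) at -1.06 with siPAPα, ASNS (asparagine synthetase) at -1.11 with siPAPγ and DDIT3 at -1.57 with the double KD. Medians over the tested genes were 0.25, -0.23, -0.25 and 0.07 with siStar-PAP, siPAPα, siPAPγ and the double KD. SESN2, a stress-induced regulator of mTORC1, had relative log2 changes of 2.26, 1.08, 1.66 and 1.72 in that order, and ATF5, a transcription factor of the same family as ATF4, had 2.14, 2.50, 2.30 and 1.92. In siStar-PAP replicate 2, 3 of 8 were lower and none higher, beside 8.11% and 5.56% of all genes, with ASNS at -1.69, CHAC1 at -3.86 and SHMT2 (mitochondrial serine hydroxymethyltransferase) at -1.41. The median over the 8 was -0.65. SESN2 and ATF5 had -0.22 and 0.47 there. In siCtrl, ASNS gave 7.26 RPM in replicate 1 and 220 in replicate 2, CHAC1 11.1 and 244, and SHMT2 168 and 1070. With siStar-PAP replicate 2 these genes gave 61.2, 14.8 and 361 RPM, still above siCtrl replicate 1. Their falls thus started from a control far above that of replicate 1. ATF4 itself had relative log2 changes of 0.42 and -0.55 with siStar-PAP replicates 1 and 2, -0.53 with siPAPα, -0.83 with siPAPγ and -0.47 with the double KD. The medians over all cytosolic synthetase genes, not only those that share ATF4, were 0.33, -0.22, 0.31, 0.11 and 0.05. These are RNA levels, and a link between ATF4 and the synthetase genes was not tested.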

How the data were processed

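3′READS or 3′READS+ reads of HEK293 RNA were mapped to hg19 by the authors with bowtie2, uniquely (MAPQ above 10), PASS reads needed at least 2 untemplated Ts, and PASs within 24 nt were merged. The deposited values are counts of PASS reads per PAS, not normalized. Sense PASs were summed per gene, upstream antisense sites were left out, and RPM used the PASS totals of the study. A ratio added 1 read to each count. The double KD stood in a table with the siCtrl library of replicate 1.

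Gene changes over both replicates were tested with edgeR 4.0.16 (quasi-likelihood, TMM, default filter) and PAS use with its diffSpliceDGE on likelihood fits, at least 20 reads per PAS, with the replicate number as a block, all adjusted by Benjamini-Hochberg over every feature tested. The labels name batch 2, which had its own siCtrl and protocol, and deviations from the group means correlated at 0.848 over 11614 genes between libraries of the same number. PAS use in single pairs (genes with at least 50 reads in each library) was tested in scipy 1.17.1 in place of SAAP, the method of the study. R 4.3.3, DESeq2 1.42.0 and Python 3.11.15 were used. Steps were tested on simulated data.

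Genes named with values in every library were those past a test or 2-fold, the 3 highest and lowest of each class, and those with a PAS counted in 3 or more comparisons. The members and lists were chosen with earlier results of these data known. Sequences and gene ends came from GRCh37 (hg19) and GENCODE release 44 lifted to it.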

Additional observations from a re-analysis of the deposited data

Results flagged for a closer look

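Reads antisense to the start of NARS2, the mitochondrial asparaginyl-tRNA synthetase, were listed apart from its sense PASs and stood at 2.02 RPM in the double KD (38 reads), above 0.263 RPM (3 reads) in siCtrl replicate 1. They were singled out because they lie outside the sense reads compared and above the control. The single KDs of replicate 1 gave 0.604 RPM in siStar-PAP, 0.159 with siPAPα and 0 reads in siPAPγ. In batch 2 there were 2 reads each in siCtrl and siStar-PAP. At DARS, the cytosolic aspartyl-tRNA synthetase, such antisense reads went the other way, with 125 reads (10.9 RPM) in siCtrl replicate 1 beside 19 sense reads, and 5.02 RPM with siStar-PAP, 1.83 with siPAPα, 1.42 with siPAPγ and 4.26 with the double KD, and 1.78 and 0.941 RPM in siCtrl and siStar-PAP of batch 2. The reads of 1 library carry no replicate check, and their cause was not tested. No condition had the 4 libraries needed to look for a library apart from its group.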

How the results depend on the processing

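The count of members in the fit over both siStar-PAP replicates was 0, and it became 1 without the expression filter (EARS2, log2 change 1.12) and 2 with DESeq2 (EARS2 1.15 and NARS 1.06). Over all genes those 2 settings called 473 of 13351 and 276 of 11614 fitted, some of which DESeq2 left without an adjusted p. RLE factors left the count of members at 0. With no replicate block it was 0 too, and the calls over all genes went from 266 to 0, while PAS use went from 12 to 0 calls over all genes and stayed at 0 for the members. Leaving out a batch left no residual degrees of freedom in these fits, which then give no test. Past 2-fold without setting changes against the median stood 11 members (PASS totals) or 10 (table totals) in siStar-PAP replicate 1 in place of 6, and 5 by either total in replicate 2 in place of 2, and 4 with siPAPγ (PASS totals) in place of 7. At 1.5-fold the counts were 15, 13, 18, 14 and 16 with siStar-PAP replicates 1 and 2, siPAPα, siPAPγ and the double KD. With more than 200 reads replicate 2 had 1. The difference of class medians became 0.10 with siPAPα and 0.09, from -0.39, with siStar-PAP replicate 2 over members with more than 200 reads, and the level ratio in siStar-PAP replicate 1 became 1.29 over members with at least 20 reads. Over both siStar-PAP replicates that difference ranged from -0.39 to 0.91 on leaving 1 out. PAS counts with no minimum change were 32 with siStar-PAP replicate 1, 37 with siPAPα, 29 with siPAPγ and 39 with the double KD, and at 20 points 7, 7, 5 and 6, and 0 with siStar-PAP replicate 2. With at least 200 reads they were 8, 12 and 8 with siStar-PAP replicate 1, siPAPα and the double KD. Shares of all genes or PASs at these other fold, read and point limits are not given. The counts at those limits therefore say nothing particular of the members. Depth limits MARS2, NARS2, DARS, HARS2 and TARS2 most, and PAS use in batch 2, where 12 members could be tested.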
